A study of Mus musculus with 8 samples.

Results

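The 44 genes described here encode proteins that bring fatty acids into the cell, activate them, move them into mitochondria and oxidise them. They were chosen by name, and a gene counted as present where a probe carried its symbol and no other. By that rule 39 of the 44 genes had 53 probes among 33600 on the array, out of 13661 named genes. Of these 39, 38 had values on at least 3 arrays of each group and were tested among 18044 features. Fabp3 had values in infarcted hearts alone and is given apart. Acsl1, Mlycd, Hadha, Acaa2 and Ucp2 were not analysed here.

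The adult heart takes most of its energy from fatty acids, which reach the muscle cell through lipoprotein lipase, transporters such as Cd36 and binding proteins of the Fabp family. Acyl-CoA synthetases activate them, the carnitine shuttle carries them into the mitochondrion, and beta-oxidation shortens them step by step. The nuclear receptors of the PPAR and ERR families are known to drive many of these genes, and reduced fatty acid oxidation is a well-known feature of the failing heart.

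The hearts came from C57Bl/6 mice, 8 to 10 weeks old. In 4 infarcted mice the left coronary artery was tied for good at its descending branch, and in 4 sham control mice the suture was passed but not tied. Each heart had its own array of spotted long oligonucleotides, with heart RNA in red and a pooled reference from adult mouse tissues in green. How long after surgery the hearts were collected is not given in the sources used here. Infarcted hearts were taken whole, so scar, border and remote muscle were not separated, and fewer muscle cells cannot be told apart from less RNA per muscle cell.

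A level below is the log2 of the signal of 1 channel over the median of the block of spots around it, so that 0 is the median spot. A fold change is the mean of the infarcted arrays minus that of the sham control arrays. The channel is not stated and is taken to be that of the heart. No value was divided by the reference signal of its spot. Values were present for 19704 to 24819 spots per array. The highest signals were 61134 to 65466, close to the ceiling of a 16-bit scanner, and among the 1073 probes with a signal over 20000 on any array, 190 values were missing on sham control arrays and 38 on infarcted arrays. Of the 12 muscle markers 5 were tested, with mean levels of 3.46 to 6.65 in sham control and 3.48 to 6.57 in infarcted hearts, and none passed. Csrp3 stood at -0.98 ± 0.20 and Ckm at -0.69 ± 0.27 (SE), each with groups apart, and after quantile normalization at -0.08 and 0.23 with overlapping groups. Casq2 stood at -0.11, Ryr2 at 0.02 and Pln at 0.27, and after quantile normalization at 0.75, 0.37 and 0.91, with infarcted arrays above sham control arrays for Casq2 and Pln. Pln had values on 3 arrays of each group, and Ckm on 3 sham control arrays. Mb and Myl3 had no value on a sham control array, and the other 5 had too few values to test. The part of muscle cells in the fatty acid genes was not tested.

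None of the 38 fatty acid genes passed an adjusted p under 0.05 (limma, Benjamini-Hochberg over all features), where 0.549% of all features did. Most of them nevertheless lay on the same side. The fold change was negative for 32 of 38 genes, against 57.5% of all features, and positive for 6. The median was -0.58, against -0.08 over all features. Without adjustment, 16 genes were lower and 1 was higher at p under 0.05, where 8.82% and 3.46% of all features were, 12.3% together. In 13 genes every infarcted array lay below every sham control array (6.27% of all features), and in 0 genes every infarcted array lay above (2.62% of all features). The smallest adjusted p was that of Fabp4, at 0.084. Leaving out sham control replicate 4 brought 1 of 37 genes, Hadhb, past the threshold (limma adjusted p = 0.037), while 615 of 17175 features passed in all.

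The shift differed with signal and with how the arrays were scaled. Among all features with a mean level over 5, the median change was -0.90, 96.6% were negative and in 55.6% the infarcted arrays lay wholly below. For features with a level from 4 to 5 the median was -0.62, and for those from 0 to 1 it was -0.02. The 8 fatty acid genes over 5 had a median of -0.70, and the 7 from 4 to 5 had -0.74. The 8 from 3 to 4 had -0.58, beside -0.30 for all features, and the 5 from 1 to 2 had -0.85, beside -0.04. The 3 from 2 to 3 had -0.15, beside -0.12, and the 4 from 0 to 1 had -0.08. The 3 below 0 had 0.25, beside -0.03. Quantile normalization, which gives every array the same distribution of signals, left 20 fatty acid genes negative and 18 positive, with a median of -0.04, beside 49.8% of all features negative. None passed (0.177% of all features), and 8 had an unadjusted p under 0.05 (9.8% of all features), 5 lower (5.18%) and 3 higher (4.63%). After loess smoothing of each array against the mean array, 19 were negative and 19 positive, with a median of -0.01, beside 50.1% of all features negative. None passed (0.349%), and 9 had an unadjusted p under 0.05 (12% of all features), 5 lower (6.33%) and 4 higher (5.63%). Groups then lay apart for 2 lower genes and 1 higher gene, beside 4.24% of all features in each direction. Over the 3 scalings 19 genes were negative each time, 6 were positive each time, and 13 changed sign.

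**Figure D1:**
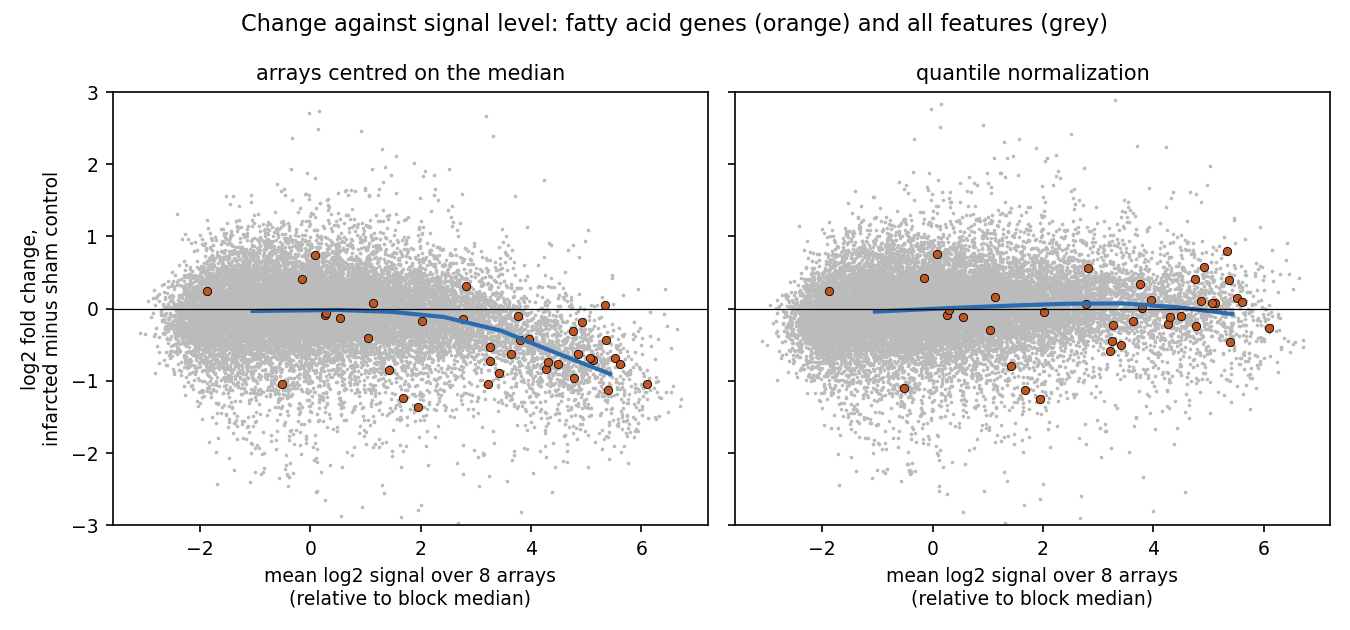
Fold change on the log2 scale (vertical) against mean log2 signal over 8 arrays (horizontal) for all tested features (grey) and the 38 fatty acid genes (orange), with the median of features per level class as a blue line. With arrays centred on the median the line bends to -0.90 at the brightest signals. Of the 8 fatty acid genes with a level over 5, 7 are negative, with a median of -0.70 for the 8, and Cd36 is at 0.05. After quantile normalization the line stays near 0 and the lowest fatty acid genes, Acot1, Ucp3 and Acot2, remain apart from it.

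A smaller set kept an unadjusted p under 0.05 (limma) under 3 scalings. Fabp4, Acot1, Acot2, Cpt1a and Ucp3 were lower and Acsl5 higher in infarcted hearts with an unadjusted p under 0.05 under median centring, quantile normalization and loess alike. These 6 of 38 genes make up 15.8%, beside 7.63% of all features that met the same condition. The condition was set after the values were seen, and none of the 6 passed the adjusted threshold under any of the 3 scalings. Agreement between scalings adds little for most of them. Acot2, Acsl5 and Acot1 had mean levels of -0.51, 0.08 and 1.95, and Cpt1a and Ucp3 had group means of 1.00 to 2.29. Scaling moved features of such levels little. The median change of features from 1 to 2 was -0.04 under median centring and 0.04 after quantile normalization.

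**Figure D2:**
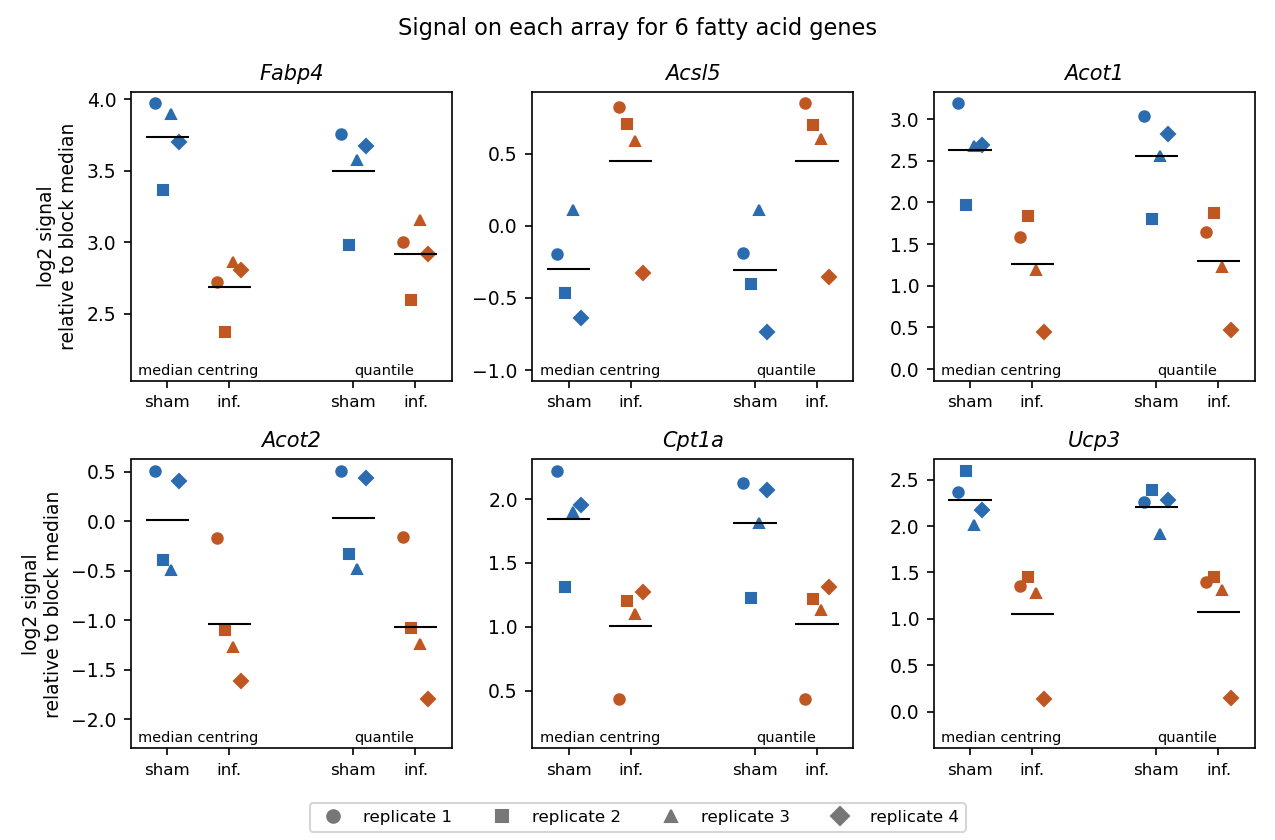
Log2 signal relative to the block median (vertical) on each of 4 sham control (blue) and 4 infarcted (orange) arrays for the 6 genes, with arrays centred on the median at left and quantile-normalized at right in each panel. Marker shapes give the replicate and lines the group mean; the gap between groups is about as wide on either side for Ucp3, Acot1 and Cpt1a and narrower at right for Fabp4.

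Promoter windows of 4 of these genes are shown because the genes were lower together under every scaling and are known targets of PPAR receptors. The windows run from 250 bases before to 50 bases after the transcription start, on build GRCm38.p6 from RefSeq, and read along the gene. All 4 genes lie on the plus strand, Ucp3 at chr7:100472741-100473040, Cpt1a at chr19:3323051-3323350, Acot1 at chr12:84009252-84009551 and Acot2 at chr12:83987611-83987910. Capitals mark AGGTCA, the half-site of many nuclear receptors, on either strand.
Ucp3: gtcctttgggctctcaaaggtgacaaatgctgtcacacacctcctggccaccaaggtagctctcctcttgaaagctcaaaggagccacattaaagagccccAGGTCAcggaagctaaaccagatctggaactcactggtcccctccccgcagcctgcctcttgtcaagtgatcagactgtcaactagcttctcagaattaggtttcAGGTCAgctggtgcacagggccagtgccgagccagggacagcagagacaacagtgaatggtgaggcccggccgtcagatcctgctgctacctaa
Cpt1a: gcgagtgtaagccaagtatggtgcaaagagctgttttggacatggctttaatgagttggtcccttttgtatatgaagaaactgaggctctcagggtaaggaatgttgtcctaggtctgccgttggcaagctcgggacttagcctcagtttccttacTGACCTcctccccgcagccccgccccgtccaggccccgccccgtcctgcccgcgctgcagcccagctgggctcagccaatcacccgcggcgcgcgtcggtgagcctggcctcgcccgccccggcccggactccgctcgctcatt
Acot1: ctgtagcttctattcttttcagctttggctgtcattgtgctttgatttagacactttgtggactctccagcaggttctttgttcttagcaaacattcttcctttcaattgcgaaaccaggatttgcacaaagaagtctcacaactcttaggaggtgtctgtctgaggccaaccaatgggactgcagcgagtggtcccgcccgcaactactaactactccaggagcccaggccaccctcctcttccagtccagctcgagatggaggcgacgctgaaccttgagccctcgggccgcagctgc
Acot2: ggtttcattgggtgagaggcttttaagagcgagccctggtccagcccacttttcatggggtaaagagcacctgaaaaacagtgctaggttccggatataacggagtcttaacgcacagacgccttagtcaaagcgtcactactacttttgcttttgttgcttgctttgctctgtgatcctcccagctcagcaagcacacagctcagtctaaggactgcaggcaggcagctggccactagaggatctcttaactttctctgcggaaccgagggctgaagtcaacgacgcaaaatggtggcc

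The full PPAR:RXR element, searched on both strands as a direct repeat of AGGNCA with 1 base of any kind between the copies, had no match in the 40 windows held for 36 of the 44 genes, and 0.381% of 32851 windows of all genes had one. The ERR element TNAAGGTCA, which contains the half-site, had none either, beside 1.28% of all windows. The half-site alone, added after these searches, was found in 7 of the 40 windows (17.5%) and in 16.3% of all windows. Ucp3 had it at positions -149 and -44 from the start and Cpt1a at -94 on the opposite strand. Acot1 and Acot2, neighbouring paralogs, had none, and their windows were 49.8% identical after alignment, within the 46.9% to 55.1% of all 10 pairs of windows among these 4 genes and Acsl5. A match in a window is a description of its letters and shows no binding.

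Of the 6 genes tested of uptake and binding, none passed, 4 were negative with arrays centred on the median and 3 after quantile normalization or loess. Only Fabp4 and Fabp5 among them had groups apart, under median centring and not under the other scalings. Fabp4, the fatty acid binding protein of adipocytes and capillary endothelium, had levels of 3.97, 3.37, 3.90 and 3.70 in sham control and 2.72, 2.37, 2.86 and 2.80 in infarcted hearts. The groups did not overlap, with a change of -1.04 ± 0.23 (SE, n = 4 each, limma adjusted p = 0.084), and -0.58 ± 0.25 after quantile normalization. All 4 of its probes were lower, by 1.09, 1.20, 0.82 and 1.07 on the log2 scale when each was fitted on its own, and 1 of them passed (limma adjusted p = 0.0397). The brightest of these probes reached a signal of 64475 on a sham control array and 26394 on an infarcted one.

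Fabp4 was read against markers of the cell types known to express it. Of 9 adipocyte markers 6 were tested, 4 negative and 2 positive, with a median change of -0.20 and none past the threshold. The mean level of the list on the arrays ran from -0.98 to 0.15 in sham control and from -0.45 to 0.10 in infarcted hearts. The defining markers Adipoq and Plin1 were dimmer than the median spot in either group, at -1.39 and -2.25 in sham control and -0.47 and -2.53 in infarcted hearts, whereas Car3 and Pck1 were brighter, at 2.99 and 0.73 in sham control and 2.86 and 0.33 in infarcted hearts. Adipoq stood at 0.92 ± 0.30 and Cidec at 0.73 ± 0.23 (SE, limma adjusted p = 0.234 and 0.215), with infarcted arrays above sham control arrays under all 3 scalings. The 4 negative markers were Plin1 at -0.28, Lep at -0.35, Car3 at -0.13 and Pck1 at -0.41, each with overlapping groups. Of 9 endothelial markers 6 were tested, 3 negative and 3 positive, with a median of -0.06 and mean levels of 1.52 to 2.26 in sham control and 1.57 to 2.28 in infarcted hearts. The ranges of both lists overlapped between groups. Of 10 macrophage markers 8 were tested and 7 were positive, with a median of 0.67, none past the threshold, and mean levels of 0.84 to 1.47 in sham control and 1.47 to 2.19 in infarcted hearts. The part of these cells in the fatty acid genes was not tested.

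Fabp5, a binding protein of many tissues, had levels of 3.90, 3.36, 3.47 and 3.77 in sham control and 2.89, 3.12, 2.59 and 2.98 in infarcted hearts. The groups did not overlap, and the change was -0.73 ± 0.23 (SE, limma adjusted p = 0.209). Quantile normalization left -0.45 ± 0.25, with overlapping groups. Fabp3, the binding protein of heart muscle, had levels of 6.26, 6.22, 6.35 and 6.31 in infarcted hearts and no value on any sham control array. Its signals in infarcted hearts were 20206 to 36147. Bright spots lacked values mainly on sham control arrays, so no direction is given for Fabp3.

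Of the transporters, none had groups apart. Slc27a1 stood at -0.15 ± 0.21 and turned to 0.07 after quantile normalization, Slc27a4 stood at 0.08 ± 0.28 and turned to -0.16 without sham control replicate 4 and to -0.0056 without infarcted replicate 4, and the carnitine transporter Slc22a5 stood at -0.13 ± 0.21 (SE). Groups overlapped for all 3. Cd36, the main fatty acid transporter of heart muscle, had levels of 5.65, 4.29, 6.35 and 4.95 in sham control and 5.62, 4.11, 5.76 and 5.96 in infarcted hearts, a change of 0.05 ± 0.51. Quantile normalization gave 0.80 ± 0.52 (limma adjusted p = 0.65). Its 3 probes differed. One stood at 0.48 ± 0.25 and another at -0.27 ± 0.32, and the last had levels of 1.63 and 1.31 on replicate 2 of each group and 4.26 to 6.91 on the other arrays with a value.

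Of the lipases, none had groups apart. Lpl, which frees fatty acids from circulating lipoproteins, averaged -1.13 ± 0.88 (SE, limma adjusted p = 0.669), but this mean mixed bright and dim probes. Its dim probe, at -2.48 to -2.58, had a value on sham control replicate 3 and infarcted replicates 1 and 3 alone, and it pulled down the gene's mean on those arrays. The probe with a value on all 8 arrays had 6.85, 6.48, 7.09 and 6.37 in sham control and 5.89, 5.49, 6.25 and 6.43 in infarcted hearts, a change of -0.69 ± 0.28. The other bright probe stood at -0.32 ± 0.24, with signals up to 62393.

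Pnpla2, which starts the breakdown of stored triglyceride, had levels of 5.55, 4.39, 4.90 and 3.85 in sham control and 4.28, 4.10, 3.82 and 3.52 in infarcted hearts. Its change of -0.74 ± 0.36 (SE) was lower for both probes and shrank to -0.12 after quantile normalization. Lipe, the hormone-sensitive lipase, stood at -0.07 ± 0.31, with 1 of its 3 probes positive.

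**Figure D3:**
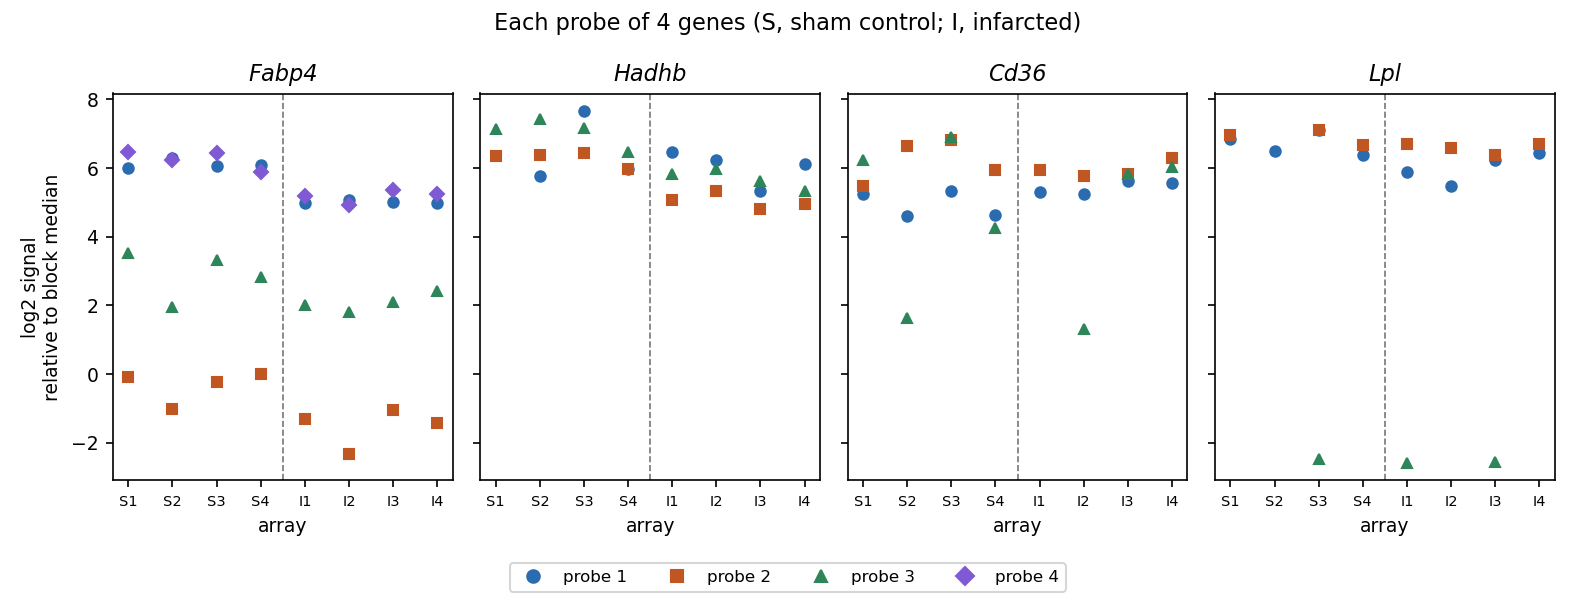
Log2 signal relative to the block median (vertical) for each probe of Fabp4, Hadhb, Cd36 and Lpl on the 4 sham control (S1 to S4) and 4 infarcted (I1 to I4) arrays. All 4 Fabp4 probes have a lower mean on infarcted arrays, although probe 3 on S2 lies within its infarcted range. Probe 3 of Cd36 drops on S2 and I2, and probe 3 of Lpl, present on 3 arrays, lies far below the other Lpl probes.

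Of the 5 genes tested of activation and release, none passed. The acyl-CoA synthetases Acsl3, Acsl4 and Acsl5 were all positive under the 3 scalings, and the thioesterases Acot1 and Acot2, which split acyl-CoA into free acid and coenzyme A, were both negative. Among the thioesterases of the wider list, Acot7 stood at -0.45, Acot9 at 0.33 and Acot13 at -0.39, which turned to 0.31 after quantile normalization. Acsl5 had levels of -0.19, -0.47, 0.11 and -0.64 in sham control and 0.83, 0.70, 0.59 and -0.33 in infarcted hearts. Infarcted replicate 4 lay inside the sham control range and the other 3 above it. The change was 0.74 ± 0.30 (SE, limma adjusted p = 0.357), and 1.00 without that array. Acsl3 and Acsl4 stood at 0.40 ± 0.24 and 0.25 ± 0.35, and for Acsl4, with 3 sham control values, all arrays lay below the block median.

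Acot1, the cytosolic thioesterase, had levels of 3.19, 1.96, 2.68 and 2.69 in sham control and 1.58, 1.83, 1.19 and 0.45 in infarcted hearts. The groups did not overlap, although sham control replicate 2 and infarcted replicate 2 were close. The change was -1.37 ± 0.36 (SE, 2.58-fold lower, limma adjusted p = 0.139) and -1.26 ± 0.37 after quantile normalization.

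Acot2, its mitochondrial relative, had 0.51, -0.39, -0.49 and 0.40 in sham control and -0.17, -1.10, -1.27 and -1.61 in infarcted hearts. Infarcted replicate 1 lay within the sham control range. The change was -1.04 ± 0.36 and -1.10 ± 0.38 after quantile normalization (limma adjusted p = 0.273 and 0.378). Each gene rested on 1 probe, and cross-hybridisation between these paralogs was not tested.

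All 5 genes tested of the carnitine shuttle and its control were negative under the 3 scalings, and none passed. Groups lay apart for 3 of them under median centring, beside 6.27% of all features, for 0 after quantile normalization and for 1 after loess. Cpt1a, the outer-membrane carnitine palmitoyltransferase of liver and many other tissues, had 2.22, 1.31, 1.90 and 1.95 in sham control and 0.43, 1.20, 1.10 and 1.27 in infarcted hearts. The groups did not overlap, but sham control replicate 2 lay just above the highest infarcted array. The change was -0.85 ± 0.28 (SE, limma adjusted p = 0.245) and -0.79 ± 0.29 after quantile normalization.

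Cpt1b, the muscle form of the same enzyme, had 3.89, 4.15, 4.0 and 3.73 in sham control and 3.92, 3.72, 3.26 and 2.38 in infarcted hearts. Infarcted replicate 1 lay within the sham control range and replicate 4 far below it. The change of -0.63 ± 0.33 became -0.31 without infarcted replicate 4 and -0.17 after quantile normalization.

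Cpt2, the inner-membrane partner that reforms acyl-CoA, had 3.91, 3.93, 4.01 and 3.62 in sham control and 3.60, 3.56, 2.61 and 2.13 in infarcted hearts. Infarcted replicates 1 and 2 lay just below the sham control range and replicates 3 and 4 well below. The change was -0.89 ± 0.34 (SE, limma adjusted p = 0.329) and -0.50 ± 0.38 after quantile normalization. Crat, which moves acetyl groups onto carnitine, stood at -0.83 ± 0.24 with groups apart and at -0.21 after quantile normalization. Acacb, which makes the malonyl-CoA that inhibits Cpt1, stood at -0.41 ± 0.29.

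Genes of the first step of beta-oxidation followed the scaling. The acyl-CoA dehydrogenases Acadm, Acadl, Acadvl and Acads, for chains of different length, and the flavoproteins Etfa, Etfb and Etfdh, which pass their electrons to the respiratory chain, stood between -0.77 and -0.42 with arrays centred on the median, but between 0.08 and 0.40 after quantile normalization. Acadm had 4.98, 5.95, 5.92 and 5.07 in sham control and 4.80, 5.04, 4.89 and 4.33 in infarcted hearts. Infarcted replicate 2 was close to sham control replicates 1 and 4, and the change of -0.71 ± 0.30 turned to 0.08 ± 0.30 after quantile normalization. Etfdh was the only one of the 7 with groups apart, at 5.11, 5.33, 5.22 and 5.03 against 4.68, 4.87, 4.50 and 4.15, and its change of -0.63 ± 0.23 turned to 0.11 ± 0.26. Acadsb, which acts on short branched chains, was positive under the 3 scalings, at 0.32 ± 0.29 and, after quantile normalization with groups apart, 0.57 ± 0.24 (SE, limma adjusted p = 0.719 and 0.481).

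Of the later steps, all 10 tested genes were negative with arrays centred on the median and 6 after quantile normalization. Hadhb, the thiolase subunit of the trifunctional protein, had 6.75, 6.53, 7.09 and 6.14 in sham control and 5.79, 5.84, 5.25 and 5.47 in infarcted hearts. The groups did not overlap, and the change was -1.04 ± 0.26 (SE, limma adjusted p = 0.126). Its 2 probes with values on every array averaged -1.30 ± 0.23 and passed (limma adjusted p = 0.0458), whereas its other probe, without a value on sham control replicate 1, stood at -0.44 ± 0.48. Signals of its probes reached 62846. Quantile normalization left -0.27 ± 0.25, and loess 0.012 ± 0.25.

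Hadh, the next dehydrogenase for medium and short chains, had 5.50, 5.15, 5.21 and 5.16 in sham control and 4.69, 4.56, 4.50 and 3.44 in infarcted hearts. Every infarcted array was lower, and replicate 4 most so. The change was -0.96 ± 0.30 (SE, limma adjusted p = 0.209), and -0.24 ± 0.36 after quantile normalization.

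The auxiliary enzymes of unsaturated fatty acids, Eci1, Eci2 and Decr1, stood at -0.77 ± 0.23, -0.44 ± 0.20 and -0.54 ± 0.23 (SE), each with groups apart. After quantile normalization they were at -0.10, 0.0059 and -0.23, with overlapping groups. Echs1, the enoyl-CoA hydratase, went from -0.19 ± 0.23 to 0.58 ± 0.23, and its infarcted arrays then lay above every sham control array. Acat1, which also serves ketone body use, and Hsd17b10 of branched-chain breakdown stood at -0.31 and -0.11 and turned to 0.41 and 0.34. The peroxisomal enzymes Acaa1a and Ehhadh stood at -0.17 ± 0.34 and -0.09 ± 0.20, with overlapping groups.

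Ucp3, an uncoupling protein of muscle mitochondria that is induced when fatty acid supply is high, had 2.36, 2.60, 2.01 and 2.17 in sham control and 1.35, 1.45, 1.28 and 0.13 in infarcted hearts. Every infarcted array was lower, with replicate 4 far below the rest. The change was -1.23 ± 0.32 (SE, 2.35-fold lower, limma adjusted p = 0.132), and -0.93 without that array. After quantile normalization it was -1.13 ± 0.31 (limma adjusted p = 0.257), and Ucp3 was then the single fatty acid gene whose infarcted arrays all lay below the sham control arrays, beside 3.59% of all features. In the other direction Acadsb, Etfa and Echs1 lay apart, beside 3.56% of all features.

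**Figure D4:**
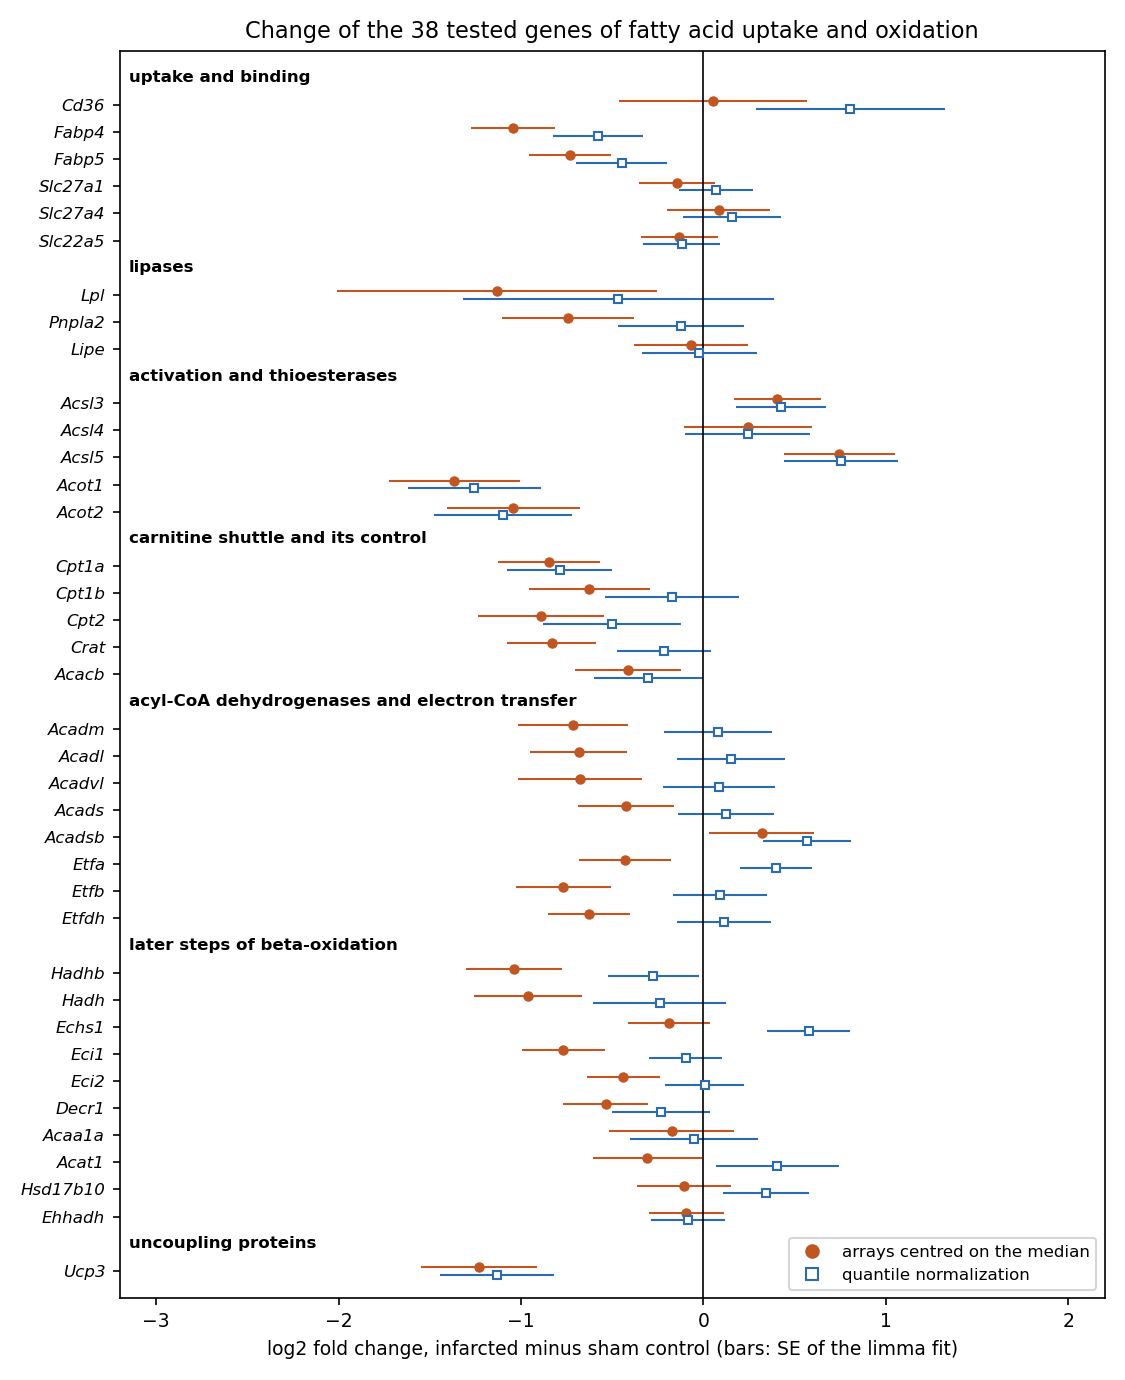
Log2 fold change, infarcted minus sham control (horizontal; bars are the SE of the limma fit), of the 38 tested genes by role, with arrays centred on the median (filled orange) and after quantile normalization (open blue). The 2 symbols nearly coincide for Acsl3, Acsl4, Acsl5, Acot1, Acot2, Cpt1a and Ucp3, and lie on opposite sides of 0 for 12 genes, among them Acadm, Acadl, Acadvl, Acads, Etfa, Etfb and Etfdh.

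The arrays of each group also differed among themselves. With arrays centred on the median, the median level of the 37 fatty acid genes with all values was 3.60, 3.45, 3.26 and 3.10 on infarcted replicates 1 to 4 and 3.91, 3.93, 3.91 and 3.73 on the sham control arrays. Infarcted replicate 4 had the lowest level of its group for 21 of the 37 genes, beside 24.3% of all features. Sham control replicate 4 was the lowest of its group for 20 of the 37, beside 42.7% of all features, and for 12 after quantile normalization (41.4% of features) and 5 after loess (24.0% of features). After quantile normalization infarcted replicate 4 was lowest for 26 of 37 (29.4% of features), and after loess for 25 of 37 (27.2% of features). The median on that array was then 3.16 and 3.14, below the 3.51 to 3.95 and 3.46 to 3.77 of the other infarcted arrays and below every sham control array. Without this array 11 genes, not 17, had an unadjusted p under 0.05 (limma), and the median change was -0.43. Leaving out another array gave 12 (without infarcted replicate 3) to 18 genes (without sham control replicate 4), so the fall was not particular to this array. The share of all features at that cut is not given for these settings.

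**Figure D5:**
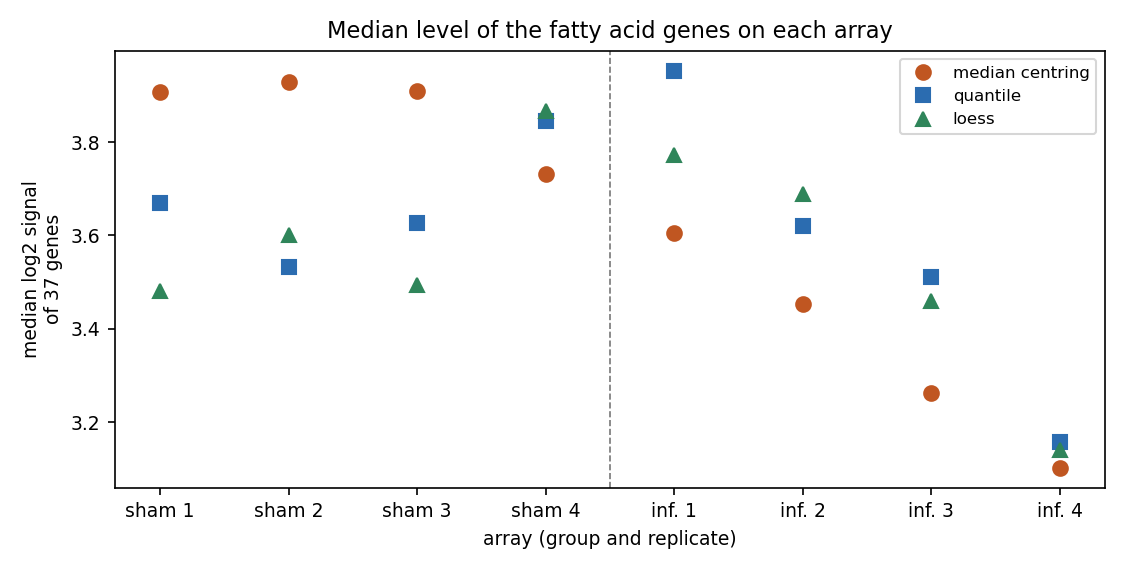
Median log2 signal of 37 fatty acid genes (vertical; the axis does not start at 0) on each array (horizontal), under 3 scalings. Infarcted replicate 4 is the lowest array under all of them, at 3.10, 3.16 and 3.14, infarcted replicate 3 lies just below the lowest sham control array after quantile normalization and loess, and infarcted replicates 1 and 2 lie below every sham control array under median centring alone.

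Of 69 other genes of fatty acid metabolism and its control, 55 were tested and none passed. Among them 41 were negative and 14 positive, with a median of -0.19, and 29 were negative after quantile normalization, with a median of -0.01. Pdk4, the kinase that spares glucose by shutting off pyruvate dehydrogenase, had 5.79, 5.55, 5.80 and 5.37 in sham control and 4.67, 4.43, 3.34 and 3.21 in infarcted hearts. The groups did not overlap, and infarcted replicates 3 and 4 were the lowest. The change was -1.72 ± 0.35 (SE, limma adjusted p = 0.0721), -1.04 ± 0.41 after quantile normalization, and past the threshold without sham control replicate 4 (limma adjusted p = 0.0364).

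Bdh1, which oxidises the ketone body beta-hydroxybutyrate, went the other way. It had 1.56, 2.74, 1.97 and 1.65 in sham control and 3.40, 3.30, 2.79 and 3.27 in infarcted hearts. Every infarcted array was higher, by little for replicate 3 against sham control replicate 2. The change was 1.21 ± 0.30 (SE, limma adjusted p = 0.118) and 1.45 ± 0.27 after quantile normalization (limma adjusted p = 0.0989).

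Dbi, the acyl-CoA binding protein, stood at -0.89 ± 0.22 and at -0.18 after quantile normalization. Plin2, a coat protein of lipid droplets, stood at -0.59 ± 0.25 and at -0.51, and Gpam, which starts triglyceride synthesis, at -0.74 ± 0.31 and at -0.42. Ppard, a fatty acid receptor, had 0.95, 4.55 and 0.35 on 3 sham control arrays and 4.17 to 4.49 on the infarcted arrays. Sham control replicate 3 was thus as high as the infarcted hearts under median centring, and the change was 2.39 ± 0.85 (SE, limma adjusted p = 0.295). After quantile normalization the change was 2.89 ± 0.78 (limma adjusted p = 0.257) and after loess 2.67 ± 0.80. Infarcted arrays then lay above the 3 sham control values under either scaling. The mean changes of the regulators Ppara and Ppargc1a were -0.28 and -0.09 (limma adjusted p = 0.708 and 0.908), and that of Esrra was -0.20. Pparg stood at 0.82 ± 0.77, Esrrg at 0.74 ± 0.43 and Rxra at 0.44 ± 0.52 (SE). Ppargc1b stood at -0.38, Nrip1 at -0.49 and Prkag2 at -0.06. Of the 10 regulators tested 6 were negative and 4 positive, where 57.5% of all features were negative. None of the 10 passed under the 3 scalings. Groups overlapped for all 10 under median centring. Ppard alone had groups apart after quantile normalization and after loess, where 3.56% and 4.24% of all features lay apart in that direction. The regulators besides Ppard were named after their values were seen.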

How the data were processed

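RNA of 4 sham control and 4 infarcted hearts was measured on 2-colour arrays, with 30 µg of RNA per dye and no dye swap per the labels. The authors deposited log2 values for 33600 spots. In each of 48 blocks of 700 spots, 2 to the power of the deposited log2 value became a whole number (tolerance 0.001) after multiplication by 1 constant per block and array, so the values were read as signals over the block median. For background correction, spot flags and software, the sources used here give nothing. The number of arrays limits how precise the values are.

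Gene symbols came from the platform annotation, and 39 of 39 symbols of the fatty acid genes on the array were found in the RefSeq gene table. A gene was the mean of its probes on each array. Arrays were centred on the median, and a limma model (version 3.58.1, R version 4.3.3; lmFit, eBayes, 2-sided, Benjamini-Hochberg adjustment) was fitted to features with at least 3 values a group. The script was tested on simulated data. Labels say that RNA came from each heart, so p-values measure the spread between hearts and arrays together. The genes, lists and tests were chosen with earlier results of these data known. All 44 genes could be named, and of the wider list any gene past the threshold or the 6 with the smallest p. Outside this rule, Acot7, Acot9 and Acot13 were named as thioesterases. Ppara, Ppargc1a, Ppargc1b, Esrra, Pparg, Esrrg, Rxra, Nrip1 and Prkag2 were named as regulators. Of each marker list only the first 3 genes were to be named. Ryr2, Pln, Ckm, Casq2, Csrp3 and Myl3 of muscle and Cidec, Lep, Car3 and Pck1 of adipocytes were added. A heart-to-reference ratio would need the other channel, which was not analysed here. Alternatives covered scaling, filters, probe summary, variance model, a replicate block and leaving out each array. Quantile normalization and lowess with a span of 0.3 are printed beside the results.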

Additional observations from a re-analysis of the deposited data

Results flagged for a closer look

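Among 87 groups of 4 arrays checked, 5 held an array far from the other 3 by Dixon's criterion, and chance gives about 1 in 20. Lpl was at 3.91 on sham control replicate 3 and at 6.48 to 6.90 on the other sham control arrays, where its dim probe had no value. Hadh was at 3.44 on infarcted replicate 4 and at 4.50 to 4.69 on the others. Ucp3 was at 0.13 on the same array and at 1.28 to 1.45 on the others. Echs1 was at 5.48 on sham control replicate 2 and at 4.82 to 4.89 on the others. Hsd17b10 was at 3.45 on infarcted replicate 2 and at 3.77 to 3.83 on the others.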

How the results depend on the processing

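With arrays centred on the median 99 features passed, and none of the fatty acid genes. The number of features was 32 after quantile normalization, 48 after scaling to the same median absolute deviation, 63 after loess, 157 with each probe tested on its own and 27 with signals scaled to the array median. The last setting and the omission of sham control replicates 2 and 4, the arrays with the fewest values, were chosen after seeing the data. Leaving out 1 array gave 3 features (without infarcted replicate 3) to 615 (without sham control replicate 4), and leaving out sham control replicates 2 and 4 gave 1120.

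Of the fatty acid genes 1 of 37 passed with complete probes (Hadhb), where 110 of 15158 features did. Of their 51 probes tested singly 2 passed (of Fabp4 and Hadhb), beside 157 of 20561 probes and features in all. Leaving out 1 array brought 0 to 1 genes past the threshold. Without sham control replicates 2 and 4, 4 of 38 genes passed (Fabp4, Pnpla2, Acot1 and Hadhb), beside 1120 of 18520 features. Of the wider list 0 to 1 passed on leaving out 1 array (Pdk4) and 3 without those arrays. The median of the fatty acid genes was -0.036 after quantile normalization, -0.0077 after loess and -0.39 with array-median scaling, and -0.66 to -0.43 on leaving out 1 array. That of the wider list was -0.0093, -0.037 and, without sham control replicates 2 and 4, -0.33, and -0.37 to -0.14 on leaving out 1 array.

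The deviations of samples with the same replicate number had r of 0.022, 0.311, -0.077 and -0.193 for numbers 1 to 4. Samples with different numbers reached as much, at 0.312 for sham control replicate 3 with infarcted replicate 4. Others went down to -0.190, for sham control replicate 2 with infarcted replicate 4. The numbers were therefore not taken to pair the samples. With the replicate number as a block 1 feature passed, no fatty acid gene did (smallest limma adjusted p = 0.207), and their median stayed at -0.58.

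Signs turned after quantile normalization for Slc27a1 (0.071), Acadm (0.079), Acadl (0.15), Acadvl (0.085), Acads (0.12), Etfa (0.40), Etfb (0.091), Etfdh (0.11), Echs1 (0.58), Eci2 (0.0059), Acat1 (0.41) and Hsd17b10 (0.34). After loess they turned for Slc27a1 (0.074), Acadm (0.095), Acadl (0.23), Acadvl (0.12), Acads (0.090), Etfa (0.44), Etfb (0.17), Etfdh (0.12), Hadhb (0.012), Echs1 (0.57), Eci2 (0.032), Acat1 (0.41) and Hsd17b10 (0.36). Other turns were Hsd17b10 with equal median absolute deviation (0.00035), Lipe with the median over probes (0.066), Slc27a4 (-0.026) and Ehhadh (0.050) with array-median scaling, and, without sham control replicates 2 and 4, Cd36 (-0.64), Slc27a4 (-0.24), Lipe (0.027) and Acat1 (0.030). On leaving out 1 array Cd36 ran from -0.29 to 0.47, Slc27a4 from -0.16 to 0.22, Lipe from -0.30 to 0.12, Acaa1a from -0.36 to 0.12 and Hsd17b10 from -0.29 to 0.050. Of 947 values of 44 named genes under alternatives, 893 kept direction and side, 45 reversed and 9 passed the threshold. The cause of these turns was not tested. Signals near the scanner ceiling limit the brightest genes, and missing values limit Fabp3, Cd36 and Lpl.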
